A study of Mus musculus with 2 samples.

Results

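ON cone bipolar cells were examined in the retina of 7-month-old WT mice and of mice with a mutation in *ND6*, the mtDNA gene for a subunit of complex I. A cell was counted as ON cone bipolar when at least 3 of the 5 genes *Trpm1*, *Grm6*, *Pcp2*, *Isl1*, and *Gng13* had a UMI, together at 0.2% or more of its UMIs, and when it held 0 UMIs of the rod bipolar genes *Prkca*, *Car8*, and *Sebox*. Members were thus chosen by their own UMI counts. The barcodes searched had more than 400 UMIs from more than 200 genes and no more than 20% mtDNA UMIs, and 280 of the 30924 met this rule. They comprised 82 of 12529 WT cells, or 0.654% (0.521 to 0.812), and 198 of 18395 ND6 cells, or 1.08% (0.932 to 1.24). Other settings, given in the closing section, put the shares from 0.439% to 1.16% in WT and from 0.767% to 2.51% in ND6. Ranges in brackets here and after are exact 95% intervals, which cover counting error only.

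Each condition was represented by 1 droplet-based 3′ scRNA-Seq library, and the labels do not say from how many mice or retinas it was made. The mice of both libraries were males of the C57BL/6J strain, and the whole retina was dissociated with trypsin and papain, with no sort for bipolar cells. ND6 mice carried the 13997 G>A change of mtDNA, which puts leucine in place of a proline in the ND6 protein. ND6 mice had a mutant dam and a WT sire, and their line began from fused female embryonic stem cells. WT mice came from sibling pairs. Library and genotype therefore cannot be told apart, and all comparisons between the libraries are descriptions without a test. The deposited matrices held 77958836 WT and 80358255 ND6 UMIs. The ON cone bipolar cells held 377040 WT and 791912 ND6 UMIs. Per WT cell, the median was 4265.5 UMIs (lowest 418, highest 15982) and 2119 genes. Per ND6 cell, it was 3567 UMIs (lowest 476, highest 14405) and 1989 genes. Of the ON cone bipolar barcodes, 0 were shared between the libraries as ON cone bipolar cells, and 1 ND6 barcode was also found among WT cells of another kind.

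Bipolar cells carry signals from photoreceptors to amacrine and ganglion cells. ON bipolar cells read glutamate with the metabotropic receptor mGluR6, which in the dark acts through a Go protein to keep the cation channel TRPM1 closed, so that light depolarizes the cell. Rod bipolar cells and several types of cone bipolar cell share this cascade, whereas OFF cone bipolar cells use ionotropic glutamate receptors. Cone bipolar axons release glutamate at ribbon synapses in the inner plexiform layer, under inhibition from amacrine cells through GABA and glycine receptors.

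The genes of the rule were first described, without a test, since they chose the cells. *Gng13*, a G protein gamma subunit of ON bipolar cells, was detected in 82 of 82 WT cells and 189 of 198 ND6 cells. *Trpm1*, the transduction channel, was detected in 71 WT cells (86.6%) and 182 ND6 cells (91.9%), and *Grm6*, which encodes mGluR6, in 52 (63.4%) and 130 (65.7%). *Isl1*, a homeobox gene of ON bipolar and other inner retinal neurons, was detected in 59 (72.0%) and 153 (77.3%), and *Pcp2*, a modulator of Go, in 68 (82.9%) and 158 (79.8%). Detection thus ran in a similar order in both libraries, with *Gng13* in most cells and *Grm6* in the fewest. All 5 genes were found in 31 WT and 77 ND6 cells, 4 genes in 24 and 64 cells, and 3 genes in 27 and 57 cells. A further 22 WT and 104 ND6 cells had only 2 of the genes and stayed outside. The genes together made up at most 2.42% of the UMIs of a WT member, with a median of 0.698%, and between 0.203% and 1.94% of an ND6 member, with a median of 0.716%. The cells just outside this limit were at 0.178% and 0.195%.

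Promoters are shown for *Trpm1* and *Isl1*, the genes of the rule whose window held a match to TAATCC, the core motif of the homeodomain factors Crx and Otx2. The motif was searched on both strands, as TAATCC and as its reverse complement GGATTA, in RefSeq windows from 250 bases before to 50 bases after each start. It was present in 7.06% of 32851 windows of all genes. Among the 20 rule, cascade, and general bipolar genes, 16 had a window. The motif was in a window of 5 of these 16, namely *Trpm1*, *Isl1*, *Cabp5*, *Otx2*, and *Gnb5*. A gene can have several windows (*Trpm1* had 2), so a share of windows and a count of genes are unlike measures. The 200 bases before the start follow 5′ to 3′ on the strand of the gene (RefSeq, GRCm38.p6), with the motif in capitals.
Trpm1, chr7:64153635-64153834, plus strand: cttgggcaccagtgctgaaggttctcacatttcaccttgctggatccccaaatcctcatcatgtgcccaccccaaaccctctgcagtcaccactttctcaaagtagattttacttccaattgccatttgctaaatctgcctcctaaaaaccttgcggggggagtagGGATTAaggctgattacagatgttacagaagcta
Isl1, chr13:116309689-116309888, minus strand: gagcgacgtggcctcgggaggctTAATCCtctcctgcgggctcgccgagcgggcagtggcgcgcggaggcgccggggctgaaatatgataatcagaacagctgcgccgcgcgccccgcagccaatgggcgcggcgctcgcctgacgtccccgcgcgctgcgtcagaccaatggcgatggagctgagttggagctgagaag
The match began 34 bases before the start of *Trpm1* and 177 bases before that of *Isl1*. *Otx2* itself was expressed at 493 CPM in WT and 602 CPM in ND6 ON cone bipolar cells. No binding was measured, and a match is a description of the sequence.

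To compare libraries and kinds of cell, the UMIs of all cells in a set were added up per library and expressed as CPM, a gene's share of the summed UMIs. Comparison sets were made by rule. The rod bipolar set held 102 WT and 205 ND6 cells that met the same rule but had at least 1 UMI of *Prkca*, *Car8*, or *Sebox*. The OFF cone bipolar set held 15 WT and 55 ND6 cells with at least 3 of 7 bipolar genes, among them *Grik1*, *Neto1*, or *Vsx1*, and no UMI of *Grm6*, *Trpm1*, *Isl1*, or the rod bipolar genes. Rods were 10647 WT and 13644 ND6 cells rich in rod genes and without a UMI of the 5 rule genes. Free RNA was read from barcodes with 10 to 100 UMIs. *Grm6* was at 438 CPM in WT and 404 CPM in ND6 ON cone bipolar cells, against 389 and 311 CPM in the rod bipolar set and 8.84 and 46.2 CPM in free RNA. *Trpm1* was at 1072 and 1179 CPM, *Isl1* at 480 and 602 CPM, *Pcp2* at 1955 and 1818 CPM, and *Gng13* at 3106 and 3036 CPM. Summed, the 5 genes were at 7050 CPM in WT and 7040 CPM in ND6 cells, with free RNA at 305 and 897 CPM. The rule itself keeps this sum above that of free RNA. In the rod bipolar set, the 5 genes summed to 11573.5 CPM in WT and 7296 CPM in ND6, with *Trpm1* and *Pcp2* at 2563 and 4740 CPM in WT.

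**Figure D1:**
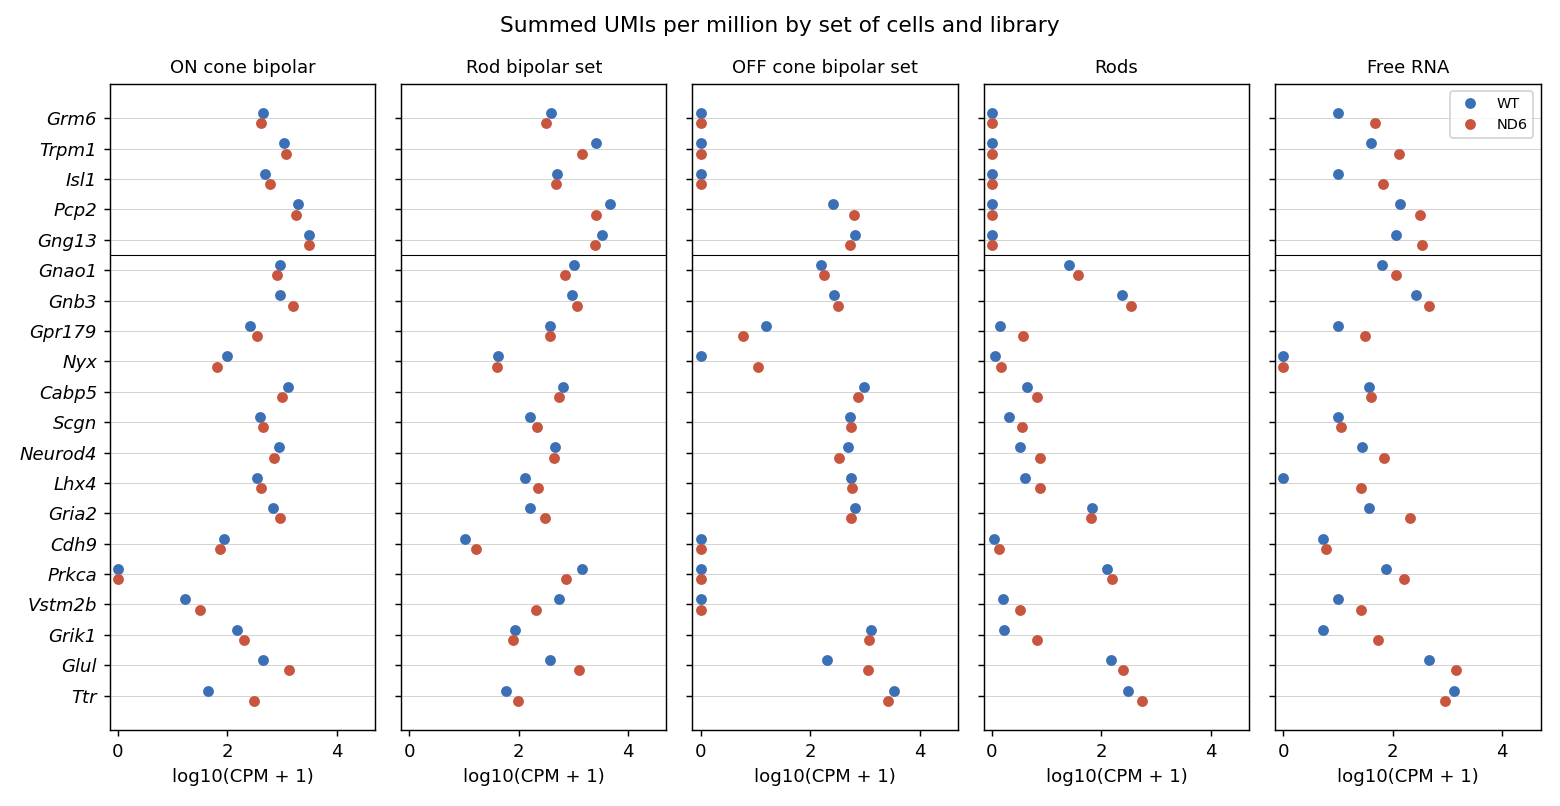
Levels of 20 genes in ON cone bipolar cells, the rod bipolar set, the OFF cone bipolar set, rods, and free RNA, as log10 of CPM plus 1, with WT in blue and ND6 in red (1 library each). The 5 genes above the line are the inclusion genes of the rule, and rods were chosen without a UMI of them. *Grm6*, *Trpm1*, and *Isl1* are set to 0 in the OFF set. *Prkca*, below the line, is set to 0 in both cone bipolar sets only. *Grik1* is highest in the OFF set and *Vstm2b* in the rod bipolar set.

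RNA of other cell types was also present in ON cone bipolar cells. All 82 WT and 198 ND6 cells held a UMI of at least 1 of the 8 rod markers, whose sum was 17918 CPM in WT and 13634 CPM in ND6 cells. Rods had 81345 and 86124 CPM and free RNA 60762 and 66547 CPM, while the rod bipolar set had 22417 CPM in WT and 29392 CPM in ND6, the opposite order. The 6 Müller markers summed to 952 CPM in WT and 2181 CPM in ND6 cells, against 1344 and 2453 CPM in free RNA, led by *Glul* (438 and 1357 CPM). The 4 pigment epithelium markers summed to 53.0 CPM in WT and 418 CPM in ND6 cells, led by *Ttr* (42.4 and 308 CPM), with 91 of the 244 ND6 UMIs of *Ttr* in 1 cell. The 6 amacrine markers summed to 23.9 and 119 CPM, and *Gad1*, *Gad2*, *Slc32a1*, and *Tfap2a* were at 0 in WT cells. The 4 horizontal cell markers reached 5.30 and 25.3 CPM, the 7 ganglion cell markers 47.7 and 107 CPM, the 6 cone markers 637 and 686 CPM, the 4 microglial markers 18.6 and 13.9 CPM, and the 6 vessel and blood markers 39.8 and 18.9 CPM. *Onecut1*, *Lhx1*, *Sncg*, *Nefm*, *Pou4f1*, *Thy1*, *Csf1r*, and *Lrat* were at 0 in WT cells, *Rgs5* in ND6 cells, and *Cx3cr1* and *Cldn5* in both. The part of this RNA in the comparisons between the libraries was not tested, apart from the values without the cells that held a pigment epithelium UMI.

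The cells were also compared with the neighbouring bipolar types by genes that did not choose the ON cone bipolar cells. The 5 other rod bipolar genes, among them *Vstm2b*, *Strip2*, *Rpa1*, and *Bhlhe23*, summed to 127 CPM in WT and 229 CPM in ND6 ON cone bipolar cells, to 1490 and 726 CPM in the rod bipolar set, and to 36.6 and 45.4 CPM in rods. OFF bipolar genes, 12 in all, summed to 427 CPM in WT and 547 CPM in ND6 ON cone bipolar cells, against 2259 and 2012 CPM in the OFF set, a sum partly fixed by that set's rule, since *Grik1* and *Neto1* are in the list. In contrast, the 13 genes of ON cone bipolar subtypes summed to 658 and 957 CPM in the ON cone bipolar cells, to 246 and 319 CPM in the rod bipolar set, and to 160.4 and 160.5 CPM in the OFF set. In both libraries, genes of ON cone bipolar subtypes thus had their highest sum in the ON cone bipolar cells, and the other rod bipolar genes in the rod bipolar set.

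The transduction cascade around mGluR6 was measured through 9 genes outside the rule. Between the libraries, 8 had at least 20 UMIs, of which 5 were higher and 3 lower in ND6 cells, and 0 differed by 2-fold or more. The median log2 ratio of ND6 over WT was 0.26, or 0.15 by median-of-ratios scaling and 0.36 with cells weighted equally. Beside the 0.26, the median of all 7870 genes tested was 0.11. Among all these genes, 6.15% were at least 2-fold higher and 1.6% at least 2-fold lower in ND6 cells. *Gnao1*, the alpha subunit of Go, was at 920 CPM in WT and 812 CPM in ND6 cells (log2 ratio −0.18, −0.37 to 0.01). *Gnb3*, its beta subunit, was at 907 CPM in WT and 1580 CPM in ND6 cells, a log2 ratio of 0.80 (0.63 to 0.98), and was detected in 67 WT cells (81.7%) and 171 ND6 cells (86.4%). Cones also use *Gnb3*, which was at 233 and 349 CPM in rods and at 270 and 460 CPM in free RNA.

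*Gpr179*, which anchors the regulators of Go at the dendritic tips, was at 263 CPM in WT and 349 CPM in ND6 cells (log2 ratio 0.40, 0.07 to 0.75). Of the regulators themselves, *Rgs11* was at 127 and 169 CPM and *Rgs7* at 45.1 and 80.8 CPM, from 17 and 64 UMIs. *Gnb5*, the obligate partner of these regulators, was at 419 and 455 CPM, and at 905 and 745 CPM in rods. *Rgs9bp*, a membrane anchor that photoreceptors use as well, was at 204 CPM in WT and 111 CPM in ND6 cells (log2 ratio −0.88, −1.34 to −0.42), with 535 and 487 CPM in rods. *Nyx*, which encodes the postsynaptic scaffold protein nyctalopin, was at 95.5 and 63.1 CPM, and *Lrit3*, which helps to place TRPM1 at the synapse, had 0 WT and 3 ND6 UMIs. Of the 8 genes, the interval of the ratio left out 0 for *Gnb3*, *Gpr179*, *Rgs7*, and *Rgs9bp*. In the rod bipolar set, the same list had a median of −0.05.

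Within each library, ON cone bipolar cells were compared with the rod bipolar set. Of 7467 genes tested, 113 (1.51%) were at least 2-fold higher in ON cone bipolar cells in both libraries, and 156 (2.09%) at least 2-fold lower, 3 of them the excluded genes. Both sets met the same inclusion rule and were divided by the 3 excluded genes, but they also differed in depth. The median cell had 4265.5 UMIs in WT and 3567 in ND6 ON cone bipolar cells, against 5470.5 and 5409 in the rod bipolar set. A bar of 0 UMIs depends on depth, so rod bipolar cells in which the 3 genes were missed can lie among the ON cone bipolar cells. The part of depth was not tested here. With at least 2 UMIs of the excluded genes required of the rod bipolar set, 176 genes were higher and 185 lower, of 7204 tested. Lower genes included *Vstm2b*, a membrane protein gene, at 15.9 CPM in WT and 30.3 CPM in ND6 ON cone bipolar cells, against 551 and 205 CPM in the rod bipolar set. *Strip2* was at 2.65 and 25.3 CPM against 437 and 148 CPM. *Il1rap*, a coreceptor of interleukin-1 and a synaptic adhesion protein, had 1 WT and 0 ND6 UMIs in ON cone bipolar cells, against 176 and 56.8 CPM. *Lrrtm4*, a postsynaptic organizer of the rod bipolar axon terminal, was at 2.65 and 2.53 CPM against 121 and 54.3 CPM. *Tpbg*, a leucine-rich membrane glycoprotein, was at 2.65 and 8.84 CPM against 151 and 70.2 CPM, and *Kcne2*, a potassium channel subunit, at 2.65 and 3.79 CPM against 157 and 39.1 CPM. These genes were at or below 30.3 CPM in ON cone bipolar cells of both libraries, and each was higher in the WT than in the ND6 rod bipolar set. Of that set, 14 of 102 WT and 66 of 205 ND6 cells held just 1 UMI of the excluded genes, and *Prkca*, *Car8*, and *Sebox* summed to 2569 CPM in the WT and 1236 CPM in the ND6 set. Free RNA held 92.9 and 231 CPM of the same genes.

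Among the genes with the highest ratios in ON cone bipolar cells, *Cdh9*, a cadherin of type 5 bipolar cells, was at 87.5 CPM in WT and 73.2 CPM in ND6 cells, against 9.32 and 15.3 CPM in the rod bipolar set. *Hs3st4*, a heparan sulfate sulfotransferase gene, was at 186 and 117 CPM against 14.7 and 28.1 CPM, and *Slc8a1*, a sodium-calcium exchanger, at 472 and 356 CPM against 37.3 and 102 CPM. *Plod2*, a collagen lysyl hydroxylase, was at 109 and 89.7 CPM against at most 22.6 CPM, and *Pcsk2*, a prohormone convertase, at 183 and 141 CPM against 41.3 and 36.6 CPM. *Medag* was at 167 and 106 CPM against 29.3 and 28.7 CPM. For each of these genes, the values of the 2 libraries stood closer to each other than to those of the rod bipolar set. This follows in part from the choice, since the genes were named by the weaker ratio of the 2 libraries.

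**Figure D2:**
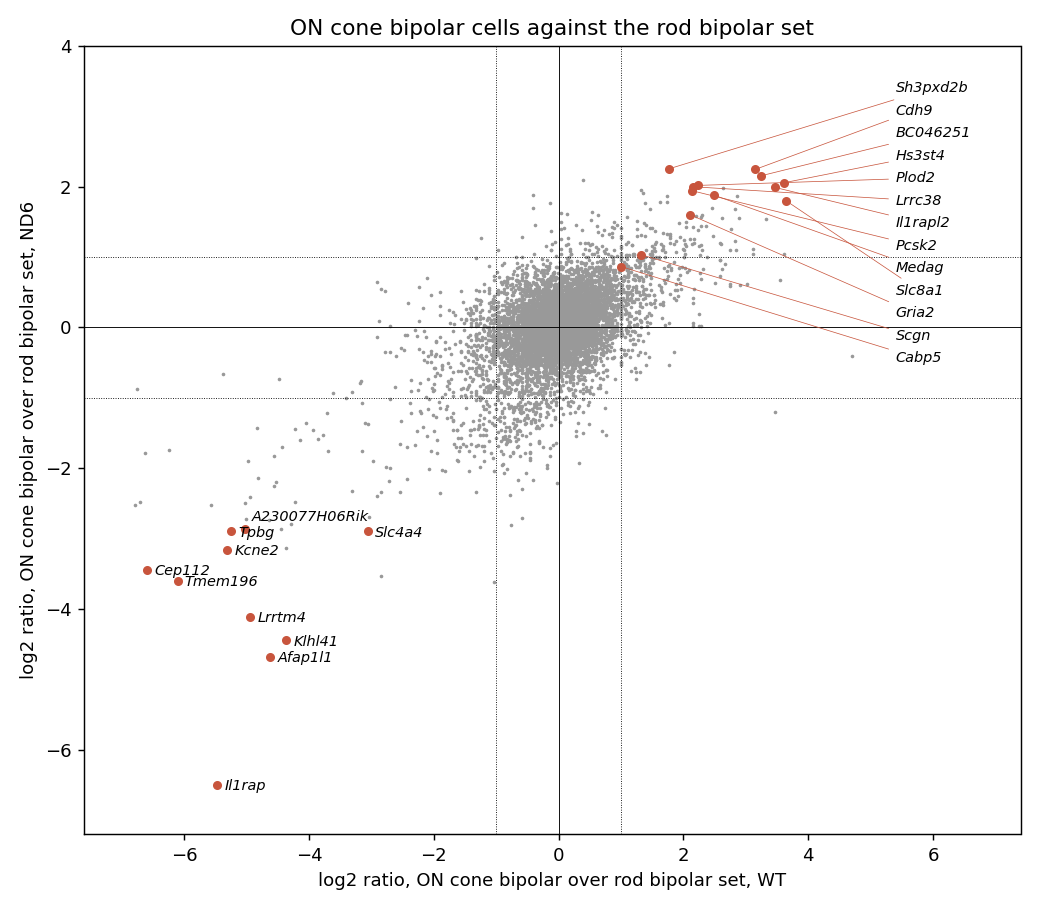
Each point is 1 of the genes tested in both libraries, without the 8 genes of the rule, placed by its log2 ratio of ON cone bipolar over rod bipolar CPM in WT (x axis) and in ND6 (y axis). Dotted lines mark 2-fold, and labelled points are the genes named by rule and 3 list genes. Labelled genes at the upper right are past 2-fold higher in both libraries except *Cabp5*, and those at the lower left reach log2 ratios below −2 in both.

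Lists of receptors and channels were also compared with the rod bipolar set, beside 2534 of all 7467 genes that were higher in ON cone bipolar cells in both libraries and 2148 that were lower, 1.51% and 2.09% of all genes by at least 2-fold. Of 5 glutamate receptor genes, 3 were higher in both and 1 of them by at least 2-fold, namely *Gria2*, an AMPA receptor subunit, at 684 CPM in WT and 903 CPM in ND6 ON cone bipolar cells, against 159 and 297 CPM. Of 16 calcium and channel genes tested in both libraries, 11 were higher in ON cone bipolar cells in both, 7 of them by at least 2-fold, and 1 was lower in both. *Gjd2*, the connexin that couples ON cone bipolar with AII amacrine cells, was at 125 and 215 CPM against 44.0 and 80.6 CPM. The calcium sensors *Hpca*, *Ncald*, and *Cabp2* were also higher, with *Ncald* at 332 and 351 CPM against 95.9 and 139 CPM. *Pcp4*, a small neuronal signalling protein gene outside this list, was lower, at 334 and 203 CPM against 2198 and 927 CPM. Of 10 inhibitory receptor genes, 6 were higher in both libraries and 1 lower, 0 of them by 2-fold, with *Gabrr2*, a GABA-C subunit, at 485 and 450 CPM against 269 and 185 CPM. Of 19 glycolytic genes, 14 were higher in both and 3 lower, with sums of 16550 and 16278 CPM against 12272 and 13349 CPM, and 0 reached 2-fold in both.

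Compared with the OFF cone bipolar set, 125 of 4214 genes (2.97%) were at least 2-fold higher in ON cone bipolar cells in both libraries and 65 (1.54%) at least 2-fold lower. The set was small, held 68600 WT and 199346 ND6 UMIs, and carried 4344 and 3391 CPM of pigment epithelium markers. *Ndnf*, a secreted neurotrophic factor, was at 759 CPM in WT and 649 CPM in ND6 ON cone bipolar cells, against 14.6 and 10.0 CPM in the OFF set. *Reln*, which encodes reelin, was at 347 and 349 CPM against 14.6 and 0 CPM, and *Grm5*, a metabotropic glutamate receptor, at 178 and 184 CPM against 0 and 0. *Cntn5*, a contactin adhesion molecule, was at 299.7 and 298 CPM against 0 and 10.0 CPM, and *Lmo4*, a LIM domain cofactor, at 424 and 407 CPM against 14.6 and 30.1 CPM. On the other side, *Otor* was at 50.4 and 22.7 CPM against 685 and 271 CPM, *Gsg1* at 385 and 444 CPM against 1662 and 2047 CPM, and *Pcp4* at 334 and 203 CPM against 2347 and 1630 CPM. The mGluR6 cascade, not used to choose either set, had 6 of 7 tested genes higher in ON cone bipolar cells in both libraries, 5 of them by at least 2-fold, beside 1308 of all 4214 genes higher by any amount.

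Transcription factors of bipolar cells were next examined. *Otx2* and *Neurod4*, which are shared by many bipolar types, were present in both libraries, at 493 and 602 CPM and at 859 and 707 CPM. *Nfia*, a nuclear factor I gene, was at 467 CPM in WT and 539 CPM in ND6 cells, against 108 and 226 CPM in the rod bipolar set. *Lhx4*, a LIM homeobox gene of cone bipolar types, was at 342 and 410 CPM against 131 and 225 CPM, and *Sox6*, a type 5 factor, at 101 and 119 CPM against 16.0 and 40.3 CPM. *Prdm8*, a histone methyltransferase family member, was lower, at 42.4 and 49.2 CPM against 174 and 138 CPM. Of 14 factors tested against the rod bipolar set, 9 were higher in ON cone bipolar cells in both libraries and 5 lower, 3 and 1 of them past 2-fold, beside 2534 higher and 2148 lower of all 7467 genes, 1.51% and 2.09% past 2-fold.

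Between the libraries, 16 of 18 tested factors were higher in ND6 cells and 2 lower, with a median log2 ratio of 0.27. The median was 0.66 with cells weighted equally, 0.67 without the 10% of cells with most UMIs, and 0.17 by median-of-ratios scaling. At least 2-fold higher were 6, against the background of 6.15%. *Six3* was at 146 CPM in WT and 336 CPM in ND6 cells (log2 ratio 1.19, 0.78 to 1.65), *Vsx1* at 66.3 and 198 CPM (1.56, 0.97 to 2.25), and *Irx6* at 23.9 and 78.3 CPM (1.65, 0.70 to 2.91). *Rax*, *Ebf1*, and *Irx5* were the others, each with 10 or fewer WT UMIs. These factors mark some bipolar types and not others, and each was found in a minority of the cells. *Six3* was detected in 16 WT cells (19.5%) and 78 ND6 cells (39.4%). *Vsx1* was detected in 7 WT cells (8.54%) and 48 ND6 cells (24.2%), and *Irx6* in 4 (4.88%) and 25 (12.6%). The same list had a median of 0.61 in the rod bipolar set and 1.13 in rods, and free RNA held 1159 CPM of the list in WT and 1762 CPM in ND6.

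Genes of the presynaptic ribbon and of transmitter release gave a median log2 ratio of −0.08 between the libraries, with 10 of 24 tested genes higher and 14 lower in ND6 cells. The median turned to 0.048 when cells were weighted equally. Their sum was 11482 CPM in WT and 11389 CPM in ND6 cells. *Syt1*, the calcium sensor of release, was at 1758 and 1659 CPM, *Snap25*, a SNARE protein, at 915 and 881 CPM, and *Slc17a7*, the vesicular glutamate transporter, at 912 and 1010 CPM. *Ctbp2*, whose RIBEYE product builds the ribbon, was at 244 CPM in WT and 346 CPM in ND6 cells (log2 ratio 0.50, 0.16 to 0.86). *Cplx3*, a complexin of retinal ribbon synapses, was at 841 and 1068 CPM (0.34, 0.16 to 0.54). *Cplx4*, the complexin of photoreceptors and cone bipolar cells, was at 878 and 501 CPM (−0.81, −1.02 to −0.59), with 1293 and 956 CPM in rods. *Cabp4*, a calcium sensor of photoreceptor terminals, was the 1 gene past 2-fold, beside 1.6% of all genes lower and 6.15% higher. It was at 114 and 54.3 CPM (−1.07, −1.71 to −0.43), with 544 and 431 CPM in rods. The 2 genes with the lowest ratios thus were higher in rods than in ON cone bipolar cells in both libraries, and the rod marker sum in the cells was 17918 CPM in WT and 13634 CPM in ND6, whose part in these ratios was not tested. Against the rod bipolar set, 10 of 23 release genes were higher in both libraries and 6 lower, beside 2534 higher and 2148 lower of all 7467 genes, with *Pclo*, the active zone protein piccolo, at 427 and 349 CPM against 256 and 212 CPM. The glutamate transporter *Slc1a7*, at 37.1 and 24.0 CPM against 104 and 101 CPM, was the 1 gene past 2-fold. It was on the lower side, where 2.09% of all genes were past 2-fold, and 1.51% on the higher.

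Receptors for inhibitory transmitters had 3 of 11 tested genes higher and 8 lower in ND6 cells, with a median log2 ratio of −0.11. The GABA-C subunits *Gabrr2* and *Gabrr1* were at 485 and 450 CPM and at 278 and 208 CPM (−0.42, −0.78 to −0.05). Only *Gabrb1*, with 6 WT and 31 ND6 UMIs, was past 2-fold. Of all 7870 genes, 6.15% were at least 2-fold higher and 1.6% at least 2-fold lower in ND6 cells. All 6 glutamate receptor genes tested were higher in ND6 cells, with a median of 0.40, but 3 of 5 were higher, with a median of 0.064, without the 10% of cells with most UMIs. The gene with most UMIs was *Gria2* (log2 ratio 0.40, 0.19 to 0.61). The kainate subunit *Grik5* was past 2-fold, at 26.5 and 75.8 CPM, as were the 6.15% of all genes on the higher side. Of 19 calcium and channel genes, 15 were higher and 4 lower in ND6 cells, with a median of 0.43. Past 2-fold was 1 of them, beside the 6.15% and 1.6% of all genes. In BC5-marker cells, 8 of 14 were higher, with a median of 0.056, and in cells with at least 4 genes of the rule the median was 0.20. *Gjd2* had a log2 ratio of 0.77 (0.31 to 1.28). *Kcnma1*, a large-conductance potassium channel, was at 809 and 934 CPM, and *Atp2b1*, a plasma membrane calcium pump, at 2284 and 2121 CPM. The levels of these named genes with at least 100 UMIs in each library differed by less than 2-fold.

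ON cone bipolar cells fall into several types, and the cells were divided by markers. Markers of type 5 (BC5: *Sox6*, *Kcnab1*, *Htr3a*, *Kcng4*) were found in 43 of 82 WT cells, or 52.4% (41.1 to 63.6), and in 115 of 198 ND6 cells, or 58.1% (50.9 to 65.0). Markers of type 6 (BC6: *Cck*, *Cnmd*, *Syt2*) were found in 8 WT cells (9.76%) and 44 ND6 cells (22.2%), and markers of type 7 (BC7: *Igfn1*, *Vsx1*) in 8 WT cells (9.76%) and 48 ND6 cells (24.2%). Markers of both BC6 and BC7 were found in 4 WT and 27 ND6 cells, which count in both shares. *Vsx1* alone was found in 7 WT and 48 ND6 cells, so the ND6 share of BC7 markers is that of *Vsx1*. The same gene helped to choose the OFF set. These shares are therefore detection of markers and not counts of separate types. None of the BC5, BC6, or BC7 markers was found in 30 WT cells (36.6%) and 50 ND6 cells (25.3%). In rods, BC5 markers were found in 1.95% of WT and 2.70% of ND6 cells, BC6 markers in 0.25% and 0.65%, and BC7 markers in 0 of 2000 and 0.15%, at a median of 1968.5 and 1568 UMIs in 2000 rods drawn per library from those with at least 1000 UMIs. Thinned to 1000 UMIs per cell, which left 77 WT and 187 ND6 cells, the shares with BC5, BC6, and BC7 markers were 23.4%, 9.09%, and 1.30% in WT and 33.2%, 16.0%, and 11.2% in ND6. In the rod bipolar set, which is deeper, BC5 markers were found in 10.8% of WT and 29.8% of ND6 cells, BC6 markers in 16.7% and 17.1%, and BC7 markers in 9.80% of WT cells and 41 of 205 ND6 cells, at full depth. Thinned to the same depth, BC5 markers were found there in 3 of 100 WT and 24 of 200 ND6 cells, BC6 markers in 7 and 12 cells, and BC7 markers in 2 and 9 cells. The shares in ON cone bipolar cells were higher in ND6 at full and at equal depth, and the part of free RNA, which held 17.7 CPM of the subtype genes in WT and 118 CPM in ND6, was not tested.

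Cells with BC5 markers and none of BC6 or BC7 (40 WT, 83 ND6) were set beside cells with BC6 or BC7 markers and none of BC5 (9 WT, 33 ND6). *Nfia* was at 717 CPM in WT and 941 CPM in ND6 BC5-marker cells, against 56.6 and 54.5 CPM in BC6- or BC7-marker cells. *Cabp5*, a calcium-binding protein of several bipolar types, was at 1635 and 1401 CPM against 415 and 299.9 CPM, and *Lhx4* at 417 and 654 CPM against 226 and 54.5 CPM. The reverse order was seen for *Six3*, at 63.3 and 142 CPM against 566 and 1145 CPM, for *Scgn*, which encodes secretagogin, at 269 and 281 CPM against 849 and 1018 CPM, and for *Cabp2*, at 10.6 and 8.68 CPM against 226 and 209 CPM. For each of these genes except *Lhx4* in WT, the intervals of the marker groups did not overlap in either library. Genes of the rule differed as well, with *Grm6* at 359 and 316 CPM in BC5-marker cells and 887 and 927 CPM in the others, and *Pcp2* at 2152 and 1939 CPM and 717 and 527 CPM. The WT group of 9 cells is small, and cells of a library are not replicates of the condition.

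**Figure D3:**
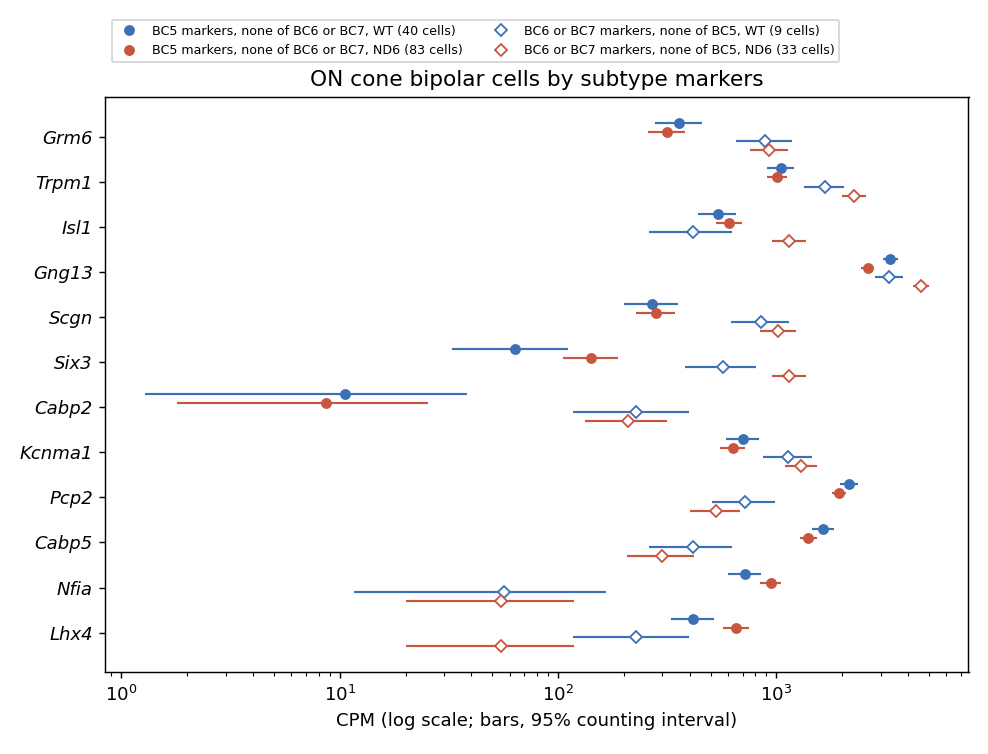
CPM on a log axis of 12 genes in ON cone bipolar cells with BC5 markers (filled circles) and with BC6 or BC7 markers (open diamonds), WT in blue and ND6 in red, with 95% counting intervals from 1 library each. *Six3*, *Scgn*, and *Cabp2* stand higher in BC6- or BC7-marker cells and *Nfia*, *Cabp5*, and *Pcp2* in BC5-marker cells, in both libraries.

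In 50 ND6 cells without any subtype marker, *Grik1*, the kainate receptor subunit of OFF bipolar cells, was at 558 CPM and *Irx6* at 306 CPM. The 30 WT cells without a marker had 148 and 9.26 CPM. In BC5-marker cells, *Grik1* was at 73.9 CPM in WT and 162 CPM in ND6. Of its 156 UMIs in all ND6 ON cone bipolar cells, 86 lay in the 20 deepest cells and 60 in 5 cells. Of its 56 WT UMIs, 42 lay in 5 cells. Over all ON cone bipolar cells, *Grik1* was detected in 8 WT cells (9.76%) and 26 ND6 cells (13.1%), and of the ND6 groups the cells without a subtype marker had the highest level of both genes. In WT the order differed, with *Grik1* at 340 CPM and *Irx6* at 151 CPM in BC6- or BC7-marker cells, above the WT cells without a marker. In the 3 WT and 32 ND6 cells with markers of BC5 and of BC6 or BC7, *Grik1* was at 302 and 52.8 CPM and *Irx6* at 0 and 42.2 CPM.

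mtDNA-encoded RNA made up 9.08% of UMIs (8.99 to 9.17) in WT and 6.03% (5.98 to 6.09) in ND6 ON cone bipolar cells, a log2 ratio of −0.59. The median cell had 9.40% in WT (quartiles 7.01 and 12.9) and 4.80% in ND6 (quartiles 3.03 and 8.01), so that the quartile ranges of the libraries overlapped. The same share was 8.82% and 6.97% in the rod bipolar set, 9.86% and 6.18% in the OFF set, and 8.89% and 7.31% in rods, log2 ratios of −0.34, −0.67, and −0.28. These shares are cut at 20% by the filter, and free RNA carried 180287 CPM of mtDNA genes in WT and 87175 CPM in ND6. All 13 mtDNA genes had lower values in ND6 ON cone bipolar cells, with log2 ratios from −1.83 to −0.37 and a median of −0.66, and 4 of them were at least 2-fold lower, against 1.6% of all genes. In the rod bipolar set and in rods, 13 of 13 were lower too, with a median of −0.41 in each.

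*mt-Nd6*, the mutated gene, lies on the opposite strand from the other 12 (mm10, chrM:13552-14070). It gave 19 UMIs in 17 of 82 WT cells and 11 UMIs in 10 of 198 ND6 cells, or 50.4 and 13.9 CPM, a log2 ratio of −1.83 with a wide interval of −3.08 to −0.71. The complex I subunits *mt-Nd4l* and *mt-Nd3* were at 605 and 235 CPM and at 2053 and 1024 CPM, and the complex V subunit *mt-Atp8* at 276 and 84.6 CPM, with log2 ratios of −1.36 for *mt-Nd4l* and −1.70 for *mt-Atp8*. Among the genes with most UMIs, *mt-Co3* of complex IV was at 16842 and 11564 CPM and *mt-Cytb* of complex III at 12863 and 8730 CPM, with ratios of −0.54 and −0.56. The smallest difference was that of *mt-Nd1*, at 5827 and 4504 CPM (−0.37, −0.45 to −0.29).

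**Figure D4:**
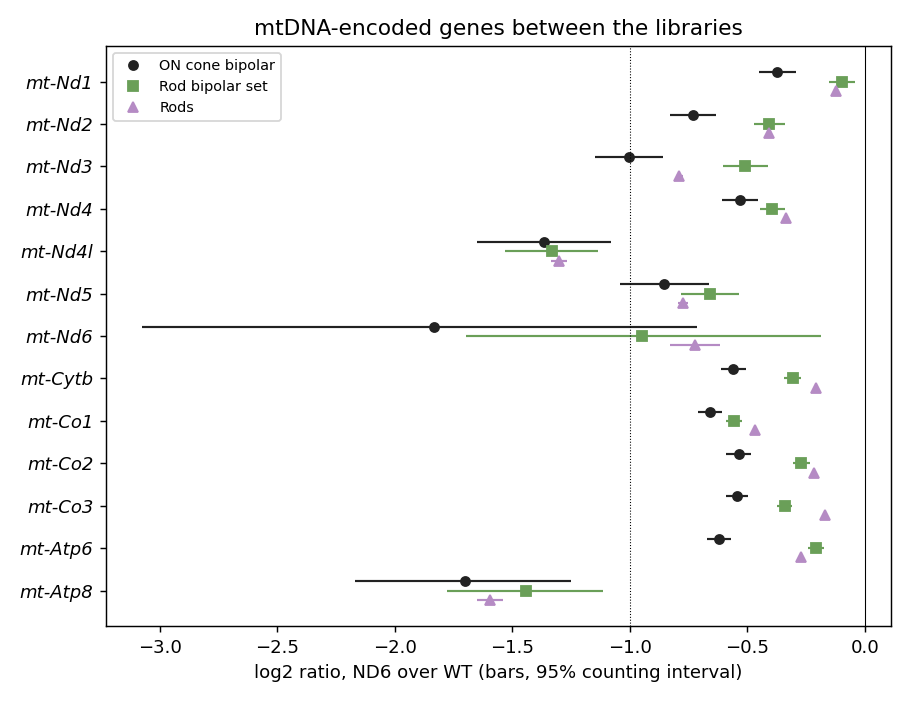
log2 ratio of ND6 over WT for the 13 mtDNA-encoded protein genes in ON cone bipolar cells (black), the rod bipolar set (green), and rods (purple), with 95% counting intervals and 1 library per condition. All values lie below 0, and in ON cone bipolar cells *mt-Nd3*, *mt-Nd4l*, *mt-Nd6*, and *mt-Atp8* lie at or beyond 2-fold (dotted line).

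Nuclear genes of OXPHOS stood near 0 and below the median of all genes. Of 78 subunits tested, 30 were higher and 48 lower in ND6 ON cone bipolar cells, 0 differed by 2-fold, and the median log2 ratio was −0.06. Of all genes tested, 6.15% were at least 2-fold higher and 1.6% at least 2-fold lower, with a median of 0.11. By median-of-ratios scaling, 20 subunits were higher and 58 lower (median −0.16), with 0 of 11 higher in complex IV and 2 of 17 in complex V. Complex I had 19 of 37 genes higher (median 0.00), complex II 1 of 4 (−0.13), complex III 3 of 9 (−0.11), complex IV 3 of 11 (−0.13), and complex V 4 of 17 (−0.17). *Ndufa4* was at 1119 CPM in WT and 1163 CPM in ND6 cells, and *Sdha*, the catalytic subunit of complex II, at 215 and 236 CPM. The list had a median of −0.07 in the rod bipolar set, and of 0.22 in rods, where 74 of 80 genes were higher. Glycolytic genes were divided, with 10 of 19 higher and 9 lower in ND6 ON cone bipolar cells (median 0.05). Their median turned to −0.055 by median-of-ratios scaling (7 higher, 12 lower) and was 0.11 with cells weighted equally (12 higher, 7 lower). Of 10 antioxidant genes, 9 were higher, with a median of 0.23 and 0 past 2-fold, but 6 of 10 with cells weighted equally (median 0.067) and 7 of 10 by median-of-ratios scaling (0.12). Among them was *Sod2*, the mitochondrial superoxide dismutase, at 156 and 192 CPM (log2 ratio 0.29, −0.15 to 0.75). Ribosomal protein genes were lower in 71 of 86 (median −0.12), while 48 of 86 were higher in the rod bipolar set.

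Genes of acute responses were compared in lists chosen with earlier results of these data known. Of 9 immediate early genes tested, 7 were lower and 2 higher, 5 of them at least 2-fold lower, against 1.6% of all genes, and the median log2 ratio was −1.07. *Fos*, an early gene of neuronal activity and dissociation, was at 196 CPM in WT and 29.0 CPM in ND6 cells (−2.74, −3.50 to −2.06). Its 74 WT UMIs came from 24 cells (29.3%), 51 of them from 5 cells, and its 23 ND6 UMIs from 20 cells (10.1%). *Egr1* had 62 WT UMIs in 21 cells and 14 ND6 UMIs in 11 cells (−3.18, −4.17 to −2.36). Without the 10% of cells with most UMIs, *Fos* and *Egr1* were at −2.17 and −2.88, but the median of the 6 genes then tested was 0.36, with 4 higher. *Jun*, with 21 of its 29 WT UMIs in 1 cell, then turned from −1.07 to 0.63. All 16 early genes were lower in ND6 rods (median −0.93), and free RNA held 318 and 128 CPM of *Fos*.

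All 8 heat shock genes tested were lower in ND6 ON cone bipolar cells, with a median of −0.40, and 7 of 8 with cells weighted equally. *Hsph1* was at 95.5 CPM in WT and 34.1 CPM in ND6 cells (log2 ratio −1.48), *Hspa8* at 1299.6 and 1004 CPM (−0.37), and *Hsp90aa1* at 2854 and 2365 CPM (−0.27). The medians of the list were −0.62 in the rod bipolar set and −0.81 in rods. Of the genes outside the lists named by size of difference, the lowest was *Hspa5*, the main chaperone of the endoplasmic reticulum, at 568 and 186 CPM (−1.61, −1.93 to −1.30). It was detected in 61 WT cells (74.4%) and 97 ND6 cells (49.0%), and its ratio was −0.92 in the rod bipolar set and −0.91 in rods. *Xbp1* and *Manf*, a transcription factor and a secreted factor of the same stress response, were at 159 and 56.8 CPM and at 151 and 56.8 CPM (−1.48 and −1.41). *Atf4*, a factor of the integrated stress response, was at 244 and 145 CPM (−0.75, −1.16 to −0.34). Of the 3 genes of that response tested, 1 was higher and 2 lower, with a median of −0.52. With no mtDNA limit 2 of 4 were higher (median 0.11), and from 1 UMI 7 of 11 (0.51). *Khdrbs3*, a splicing regulator, was at 1005 and 400.3 CPM (−1.33, −1.55 to −1.11) and had ratios of −1.12 in the rod bipolar set and −0.46 in rods. *Pde10a*, a phosphodiesterase, was at 141 and 63.1 CPM, *Hmgn2*, a nucleosome-binding protein, at 305 and 143 CPM, and *Ybx3* at 286 and 152 CPM. *AY036118*, *Lrit1*, and *Tmem258* completed the 10 lowest outside the lists, with log2 ratios from −1.04 to −0.95.

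Among genes with at least 100 UMIs, the highest ratio was that of the pigment epithelium marker *Ttr* (2.82, 2.13 to 3.69). The highest outside the lists were those of *Trf*, which encodes transferrin, and *Ptgds*, a prostaglandin synthase. *Trf* was at 29.2 CPM in WT and 169 CPM in ND6 cells (log2 ratio 2.48, 1.65 to 3.57), with 74 of 134 ND6 UMIs in 1 cell, and *Ptgds* was at 141 and 458 CPM (1.69, 1.29 to 2.15), with 156 of 363 in 1 cell. Both were high in the OFF set, which was rich in pigment epithelium RNA, at 918 and 602 CPM and at 3090 and 2960 CPM. Without the 15 WT and 38 ND6 cells that held a pigment epithelium UMI, the ratio of *Trf* was 0.68 and that of *Ptgds* turned to −0.11. *Ntng1*, a netrin-G adhesion molecule, was at 130 and 369 CPM (1.49, 1.06 to 1.97), *Slit2*, an axon guidance cue, at 117 and 304 CPM (1.37, 0.91 to 1.88), and *Tnnt1*, a troponin gene, at 103 and 268 CPM (1.36, 0.87 to 1.90). *Slit2* had 28 of its 44 WT UMIs in 1 cell, and its ratio was 0.88 without the cells with most UMIs and 5.36 in cells with BC5 markers. *Ntng1* was found in 10 WT cells (12.2%) and 53 ND6 cells (26.8%), and *Tnnt1* in 13 (15.9%) and 54 (27.3%). *Eif2s3y*, a Y-linked translation factor gene, was at 47.7 and 144 CPM and was detected in 17 WT cells (20.7%) and 81 ND6 cells (40.9%). The mice of both libraries were described as male, and whether the libraries match in make-up was not tested. *Camk1d*, a calcium-dependent kinase, *Arhgap32*, *Mbd6*, and *AI480526* had log2 ratios from 1.37 to 1.42.

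**Figure D5:**
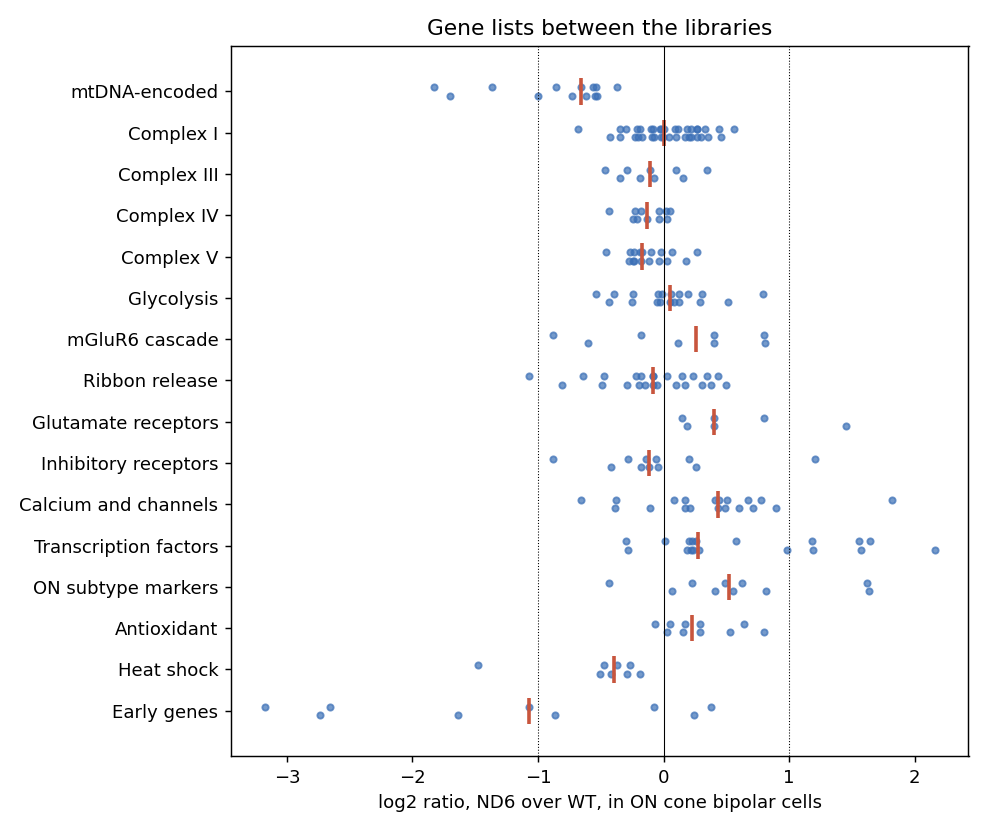
log2 ratio of ND6 over WT in ON cone bipolar cells for each tested gene (points) of 16 lists, with the median of the list (red bar), from 1 library per condition. Dotted lines mark 2-fold. mtDNA-encoded, heat shock, and early genes lie mostly to the left of 0, nuclear genes of complexes I, III, IV, and V lie within 2-fold, and glutamate receptors and calcium and channel genes lie mostly to the right.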

How the data were processed

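Per the labels, retinas were measured by 10x Chromium 3′ scRNA-Seq. The authors deposited raw UMI counts for each gene in every barcode, cells or not, made with Cell Ranger 3.0.2 on mm10 according to the submitters' processing notes. The WT and ND6 retina libraries were used, and no other library was analysed here. Barcodes were filtered and chosen by the stated rules, no doublet caller was run, and doublets were kept. Counts were summed per library and set to CPM, and log2 ratios had 0.5 UMIs added. Genes were compared from 20 UMIs summed across the libraries, and a call was a 2-fold difference. Intervals (Clopper-Pearson, Poisson, or conditional for ratios, 95%) cover counting error only. With 1 library per condition no test was possible. Named genes were those of the lists and, outside the lists, the 10 highest and 10 lowest ratios between the libraries among genes with at least 100 UMIs whose interval left out 0 and whose sign held with cells weighted equally, the 10 highest and 10 lowest against each bipolar set, and the 15 highest against all other cells, by the weaker library. Members and lists were chosen with earlier results of these data known. Shares were thinned to 1000 UMIs. The alternatives are given in the closing section. Scripts used Python 3.11.15, numpy 2.4.6, scipy 1.17.1, pandas 2.3.3, and matplotlib 3.10.9, and were tested on simulated data. Gene positions are from GENCODE vM21. Some genes of the lists are not reported here.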

Additional observations from a re-analysis of the deposited data

Results flagged for a closer look

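Barcodes above the limit of 20% mtDNA UMIs were left out of the report's comparisons and entered only the alternative with no mtDNA limit. Among them, 21 WT and 20 ND6 barcodes otherwise met the rule for ON cone bipolar cells.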

How the results depend on the processing

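No paired analysis was possible because each condition had 1 library, and no replicate could be left out. The share of ON cone bipolar cells (0.654% in WT, 1.08% in ND6, log2 ratio 0.72) was 0.444% in WT with no mtDNA limit (log2 ratio 1.14), 0.830% and 1.64% with at least 2 genes, 0.439% and 0.767% with at least 4, 0.519% and 0.864% with a sum of at least 0.4%, 0.502% and 1.32% after thinning (log2 ratio 1.39), and 1.16% and 2.51% in cells with at least 2000 UMIs (log2 ratio 1.11). It was 1.44% in ND6 when 1 UMI of the excluded genes was allowed. The mtDNA share was 11.5% and 7.56% with no limit, 9.96% and 6.26% as a mean over cells, and 8.92% and 5.79% in cells with at least 2000 UMIs.

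Genes at least 2-fold higher and lower in ND6 numbered 767 and 228 with cells weighted equally, 35 and 12 among genes with at least 100 UMIs, 2107 and 1604 with at least 1 UMI, 372 and 177 by median-of-ratios scaling, which moved the median of all genes by −0.11, and 414 and 155 when scaled without mtDNA and rod UMIs. In BC5-marker cells, chosen after seeing the data, 308 were higher. The median of mtDNA genes was −0.79 with cells weighted equally, −0.76 by median-of-ratios scaling, −0.71 without mtDNA and rod UMIs, −0.69 in cells with at least 2000 UMIs, −0.73 with at least 4 genes, −0.78 without the 10% of cells with most UMIs, −0.70 without pigment epithelium UMI cells (also chosen after seeing the data), and −0.64 in BC5-marker cells. For nuclear OXPHOS genes it was −0.16 with cells weighted equally and by median-of-ratios scaling, and −0.11 without mtDNA and rod UMIs, without the deepest cells, and in BC5-marker cells. For the mGluR6 cascade it was 0.36 with cells weighted equally, 0.15 by median-of-ratios scaling, 0.40 with at least 1 UMI, and 0.14 in BC5-marker cells. For ribbon genes it was 0.048, −0.19, −0.14, and 0.042 with cells weighted equally, by median-of-ratios scaling, without mtDNA and rod UMIs, and in BC5-marker cells, and for inhibitory receptors −0.39 in BC5-marker cells.

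Against the rod bipolar set, 29 genes were higher and 45 lower with at least 100 UMIs, and 176 were higher when that set required 2 UMIs of the excluded genes. Of the 243 genes followed singly through these settings, those past 2-fold that changed sign were *Jun* (0.63 without the deepest cells) and *Ptgds* (−0.11 without pigment epithelium UMI cells). Amacrine markers, outside these genes, went from 2 of 2 higher in ND6 cells to 1 higher and 1 lower with cells weighted equally. The causes were not tested. Genes under 20 UMIs were left out of the report's comparisons of many genes and entered only the alternative from 1 UMI.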

Other observations

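Compared with all other retinal cells, genes with the highest ratios in ON cone bipolar cells in both libraries, outside the rule, included *Kcnb2*, a delayed rectifier potassium channel, at 252 CPM in WT and 328 CPM in ND6 cells, against 45.3 and 101 CPM in the rod bipolar set. *Drd1*, a dopamine receptor, was at 194 and 245 CPM against 42.6 and 107 CPM, and *Fn1*, which encodes fibronectin, was at 58.3 and 143 CPM. The cells had been chosen by their expression, so these values are a description without a test.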
